A study of Sus scrofa with 8 samples.

Results

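CCT, also called TRiC, is the chaperonin of the cytosol, a folding chamber built from 8 related subunits that are encoded by separate genes. The expression of its genes was compared between skeletal muscle of pigs fed a high energy diet and that of pigs fed a low energy diet. Spots whose only gene symbol in the platform annotation was TCP1, CCT2, CCT3, CCT4, CCT5, CCT6A, CCT7 or CCT8 were taken. Of these 8 genes 6 had a spot, with 2 spots each, which gave 12 of the 9984 spots of the array and 6 of its 2922 named genes. CCT4 and CCT6A were not analysed here.

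The subunits form stacked rings in which each occupies a fixed place, and ATP drives the closing of the chamber around a client protein. Actins and tubulins depend on it to fold. Prefoldin and HSP70 hand unfinished chains over to it, and in muscle, whose fibres are rich in actin, this is one route by which new contractile protein is made. The array probes are human, the symbols are those of the annotation, and all 6 also occur in the RefSeq table of the pig.

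Each of 8 arrays with 2 colours carried 1 high energy and 1 low energy sample, in 4 couples that were hybridised in both dye orientations. Couple 1 paired high energy sample 40 with low energy sample 49, couple 2 paired 41 with 61, and couple 3 paired 40 again, with 142. Couple 4 paired samples called ae and be, letters the labels do not expand. The titles mark each sample with a 3 or a 5, read here as the dyes Cy3 and Cy5. The labels do not give breed, age, muscle or length of feeding, nor whether a sample is 1 animal or a pool. P-values therefore measure only how these couples differ among themselves, which may be technical.

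Values are log2 ratios after centring each array on its median. A positive value is read as higher in high energy muscle. This is the likely direction, since channel 1 holds the low energy sample per the labels and the design text calls it the reference, but it is not stated. Each mean ratio is therefore given with its turned value, which is obtained by reversing the sign of all arrays whose high energy sample carried dye 3. The turned value equals the difference of the orientations, dye 5 minus dye 3, divided by 2, and is the dye effect if the likely reading holds. Arrays held values for 77.6% to 94.4% of spots, and the SD of their log2 ratios was 0.341 to 0.724. Of 12 muscle fibre markers 11 had a spot and were measured. Ratios within an array do not give the level of a marker, so the tissue was not checked against them.

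For none of the CCT subunit genes was a difference between high and low energy muscle found beyond the spread between couples. In limma's test across 5025 features, 0 of the 6 genes passed a Benjamini-Hochberg threshold of 0.05, where 0.0% of all features passed. At an unadjusted p under 0.05 there were also 0 of 6, against 3.78% of features. The ratios of 3 genes were above 0 and those of 3 below, where 46.4% of features lay above 0. The median over the 6 genes was 0.0026 and the mean 0.049, against a median of -0.012 over all features tested. Of the 5 genes measured in 4 couples 0 had 1 sign in all of them, where 16.6% of features did. On all 8 arrays 0 of 5 had 1 sign, where 2.25% of features did. With 5 genes, counts of 0 beside these shares do not set the subunits apart.

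**Figure D1:**
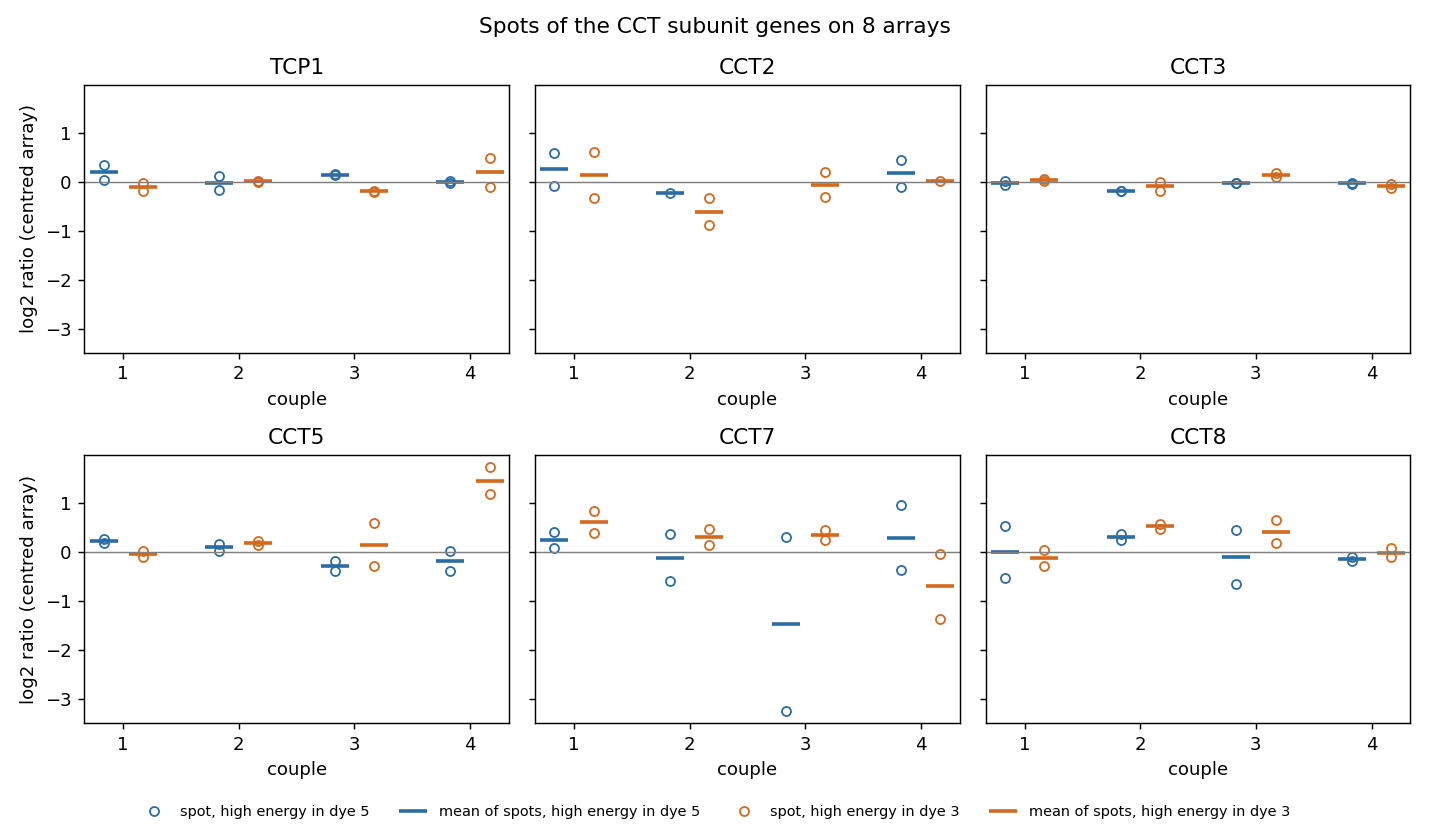
Log2 ratio (vertical axis, centred arrays) of both spots of each measured CCT gene on the 8 arrays, by couple (horizontal axis). Open circles are spots and bars their mean, blue for high energy in dye 5 and orange for high energy in dye 3. CCT3 stays between -0.18 and 0.15 as a mean of its spots, while CCT5 reaches 1.47 on 1 array and CCT7 falls to -1.46 on another.

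TCP1, the alpha subunit after which the complex was first named, varied little. On the arrays with high energy in dye 5 its ratio was 0.21, -0.017, 0.15 and 0.0091 in couples 1 to 4, and on the swapped arrays it was -0.10, 0.022, -0.18 and 0.20. It was above 0 on 5 arrays and below on 3, and in couples 1 to 3 the swapped arrays gave opposite signs. Its mean was 0.040 ± 0.082 (limma's SE, 4 couples; turned 0.029), with a 95% interval of -0.17 to 0.25 and an adjusted p of 0.996. Without couple 4 it was 0.012, and with values of a recovered signal under 200 left out it was 0.12. The recovered signal is the larger whole number of the simplest fraction whose log2 gives the deposited value. The SD of TCP1 over the 8 arrays was 0.142, lower than that of all but 11.4% of the features on 8 arrays, whose median SD was 0.300.

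CCT2 (beta) and CCT5 (epsilon) lie on the side of the ring whose subunits, in yeast, bind and use ATP more readily. CCT2 had a value in 12 of its 16 spot and array combinations, and couple 3 lacked it with high energy in dye 5. Averaged over its spots, it had 0.26 and 0.15 on the dye 5 and dye 3 arrays of couple 1. Couple 2 gave -0.23 and -0.60, and couple 4 gave 0.18 and 0.026. In all 3 couples these averages thus shared a sign on the swapped arrays, but couple 2 was below 0 and the other 2 above. The averages do not always hold the same spots, and 1 spot was missing on the dye 5 array of couple 2 and on the dye 3 array of couple 4. In couple 4 the spot present on both arrays had -0.089 and 0.026. In couple 1 the spots had opposite signs, at -0.078 and 0.60 with dye 5 and -0.32 and 0.62 with dye 3. In couple 2 every spot value present was below 0. The mean was -0.035 ± 0.16 (3 couples; turned 0.11), with a 95% interval of -0.45 to 0.38. Without couple 2 it was 0.15.

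CCT5 had the ratio farthest above 0 of the 6 genes, and it rested on 1 array. In humans, variants of CCT5 cause a hereditary sensory neuropathy. With high energy in dye 5 its values were 0.23, 0.10, -0.27 and -0.17 in couples 1 to 4, and with high energy in dye 3 they were -0.037, 0.19, 0.16 and 1.47. The last value stood far above the other 7, and only 1.61% of the features on that array were as high or higher. Both spots showed it, at 1.19 and 1.74, while on the swapped array of the same couple they were at -0.37 and 0.022. The mean was 0.25 ± 0.14 (4 couples; turned -0.28), or 1.19-fold with an interval of 0.925-fold to 1.52-fold (unadjusted p = 0.141, adjusted p = 0.996 in limma). A ratio this far from 0 in either direction was seen for 13.5% of features. Leaving out each couple gave means from 0.074 without couple 4 (turned -0.042) to 0.30 without couple 3 (turned -0.24). With high energy in dye 3 only, which includes the array at 1.47, the mean was 0.52. With high energy in dye 5 only it was -0.029. With values of a recovered signal under 200 left out it was 0.32 (adjusted p = 0.83 in limma). That filter also left out couple 1, since on its dye 5 array the CCT5 spots had recovered signals of 8 and 111.

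CCT3 (gamma) and CCT8 (theta) belong to the other side of the ring, whose subunits bind ATP weakly in yeast. CCT3 was the steadiest of the 6. Its values were -0.015, -0.18, -0.0082 and -0.020 with high energy in dye 5, and 0.051, -0.079, 0.15 and -0.076 with high energy in dye 3, in couples 1 to 4. It was below 0 on 6 of 8 arrays, all within 0.2 of 0, and its SD of 0.0972 was lower than that of all but 4.18% of features. The mean was -0.036 ± 0.086 (4 couples; turned -0.029). Its 95% interval of -0.25 to 0.18 corresponds to 0.841-fold to 1.13-fold, and of the 6 genes only TCP1, at 0.891-fold to 1.19-fold, had a narrower one on the log2 scale. Without couple 2 the mean was 0.0044.

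CCT8 was high in couple 2 and near 0 or mixed elsewhere. Its values were 0.013, 0.31, -0.091 and -0.14 with high energy in dye 5, and -0.11, 0.53, 0.42 and -0.0089 with high energy in dye 3, in couples 1 to 4. It was above 0 on 4 arrays and below on 4. The mean was 0.13 ± 0.13 (4 couples; turned -0.092), with a 95% interval of -0.19 to 0.44. Without couple 2 it was 0.0015.

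CCT7, the eta subunit, varied most. With high energy in dye 5 it had 0.25, -0.11, -1.46 and 0.30 in couples 1 to 4, and with high energy in dye 3 it had 0.62, 0.32, 0.36 and -0.69. The value of -1.46 came from 1 of its 2 spots, at -3.24, while the other spot on the same array was at 0.31. The swapped arrays had opposite signs in couples 2, 3 and 4, and the SD over arrays of 0.694 was higher than that of 93.3% of features. The mean was -0.051 ± 0.25 (4 couples; turned -0.14), with a 95% interval of -0.67 to 0.57. Leaving out couple 3 gave 0.12 and leaving out couple 4 gave 0.012.

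**Figure D2:**
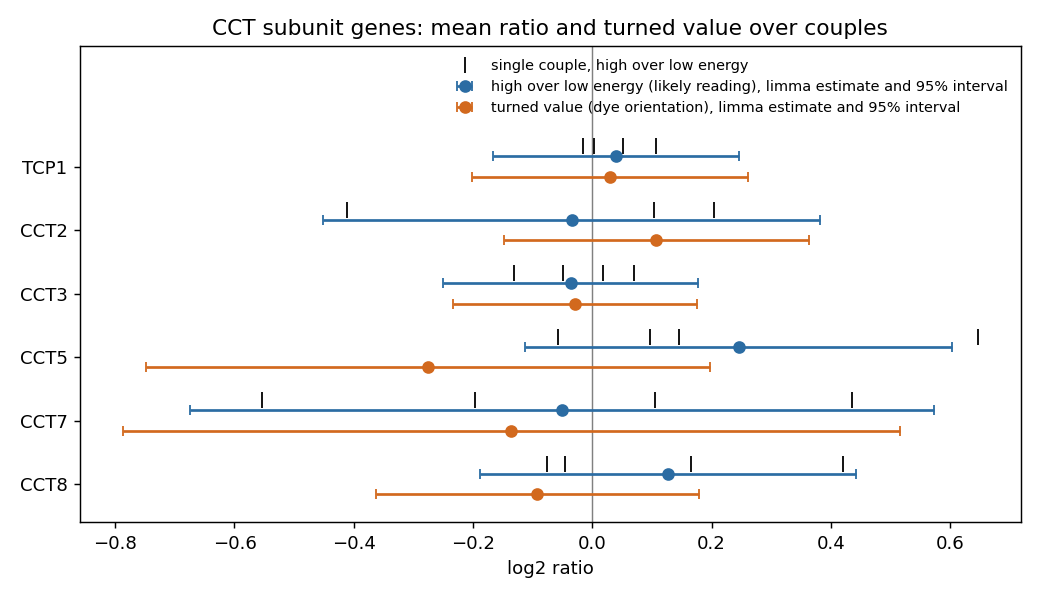
Mean log2 ratio over couples (horizontal axis) of the 6 CCT genes (rows), with limma's 95% interval, in blue for high over low energy and in orange for the turned value. Black ticks are single couples. All 12 intervals include 0, and the ratio and the turned value of CCT5, at 0.25 and -0.28, point opposite ways.

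Ordered by ratio, the genes were CCT5, CCT8, TCP1, CCT2, CCT3 and CCT7. By turned value they were CCT2, TCP1, CCT3, CCT8, CCT7 and CCT5, so the place of CCT5 depends on the direction. By ratio, neighbours differed by 0.119, 0.0871, 0.0749, 0.0014 and 0.0146, each less than the larger of the SEs of the 2 genes. Couples 1 and 3 share high energy sample 40, and their values differed for the same gene. CCT7 had 0.44 in couple 1 and -0.55 in couple 3, CCT8 had -0.046 and 0.17, CCT5 0.097 and -0.057, TCP1 0.052 and -0.015, and CCT3 0.018 and 0.069. The mean over the measured subunit genes was 0.13, 0.022, -0.078 and 0.089 in couples 1 to 4. On single arrays this mean lay between -0.34 and 0.16, and the lowest was the array that held the CCT7 spot at -3.24.

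The subunit genes also gave no call for dye orientation. For the turned value 0 of 6 passed in limma, where 0.0% of features passed, and at an unadjusted p under 0.05 there were 0 of 6, against 2.65% of features. With values of a recovered signal under 200 left out there were 2 of 5, against 4.27% of features: CCT2 with a turned value of 0.29 and CCT5 with -0.44, each with an adjusted p of 0.973. In couples 1 and 2 this filter left CCT2 with 1 spot on the dye 5 array and only the other spot on the dye 3 array. The 0.29 of CCT2 therefore also holds the difference between its spots and cannot be read as dye orientation alone. CCT8 had too few values left to be tested. The turned value was above 0 for 2 genes and below 0 for 4, with a median of -0.061 against -0.0085 over all features, and 0 of 5 genes kept its sign in 4 couples, where 14.7% of features did. The ratio and the turned value had opposite signs for 3 of the 6 genes, as for 49.7% of features. In 10 of the 23 combinations of a gene and a couple, or 43.5%, the swapped arrays shared a sign, against 50.5% over all features.

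The duplicate spots show how close the 2 spots of a gene were within an array, not how steady the gene was between arrays. The CCT5 values on the swapped arrays of couple 4, for example, were 1.64 apart. Most deposited values were, to their last digit, log2 of a fraction of 2 whole numbers. The larger of these numbers, after cancelling, is called the recovered signal, and where the fraction is real it gives a least brightness for the spot. The CCT3 spots had a median recovered signal of 13718, and their duplicates differed by a median of 0.0555 (log2) and at most 0.182. For most CCT3 values the lesser number was above 5000, the limit used below to read the base. Whether those fractions are real was not tested. TCP1 had a median signal of 846 and a median difference of 0.0958. CCT5 had 576 and 0.167, and CCT8 had 236 and 0.253. CCT2 had 334 and 0.555, and CCT7 had 414 and 0.699. Over the 2641 genes with 2 spots the median difference was 0.311, so CCT2 and CCT7 lay above it and the other 4 genes below.

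The CCT7 spot at -3.24 could be written as the ratio of 17 to 160. The CCT5 spots at 1.19 and 1.74 were ratios of 1235 to 536 and 1549 to 460, and both recovered signals were above the median of that array, 603. Duplicate spots of the subunit genes had the same sign in 26 of 45 combinations of a gene and an array, or 57.8%, against 55.5% over all genes with 2 spots. By gene this was 6 of 8 for CCT3, 5 of 8 for TCP1, CCT5 and CCT7, 4 of 8 for CCT8 and 1 of 5 for CCT2.

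**Figure D3:**
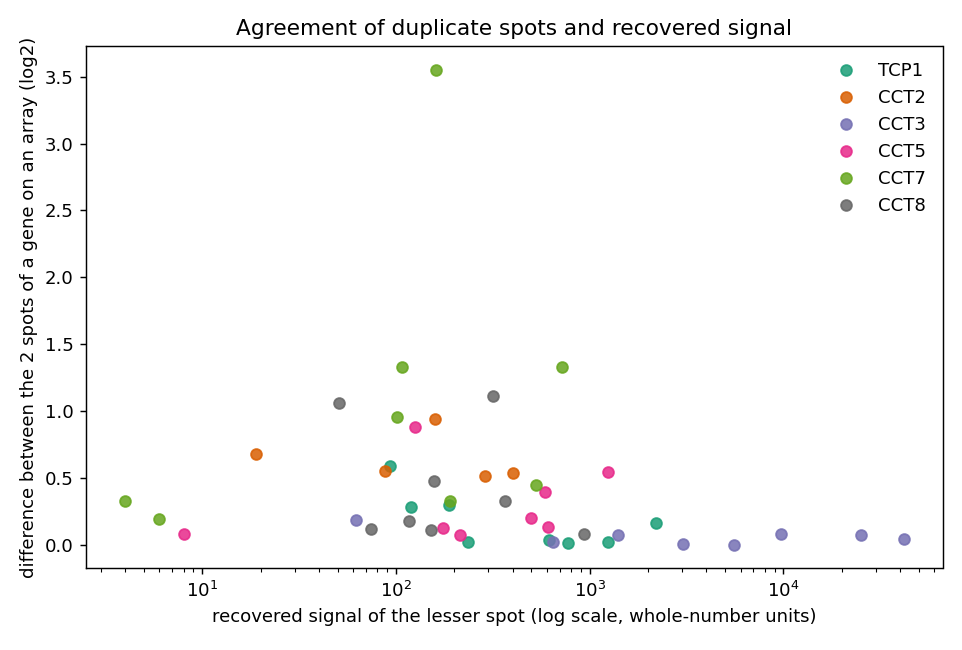
Difference between the 2 spots of a CCT gene on an array (vertical axis, log2) against the recovered signal of the lesser spot (horizontal axis, log scale), 1 point per gene and array. CCT3 lies at or below 0.182 throughout, and the largest difference, 3.55, belongs to CCT7.

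Pairs of subunit genes differed in the sign of their correlation across arrays. Among the 5 genes measured on all 8 arrays, Pearson's r over the arrays was above 0 for 4 of 10 pairs and below 0 for 6, from -0.602 for TCP1 with CCT7 to 0.407 for TCP1 with CCT5, with a median of -0.13. These r are descriptions over 8 arrays that share RNA within a couple and dyes between couples. The 5 of 1923 other named genes whose pattern was most like the mean of those subunits were BTRC, a substrate-binding subunit of a ubiquitin ligase, with r of 0.965, and POLA1, a DNA polymerase subunit, with 0.959. COX6A1 of cytochrome c oxidase had 0.941, LAS1L of ribosome assembly 0.936, and PPIG, a peptidyl-prolyl isomerase, 0.923. Each of the 5 had its lowest value, between -5.29 and -0.88, on the dye 5 array of couple 3, as did the mean of the subunits at -0.34. Over the 7 arrays without it, r was 0.827 for BTRC, 0.835 for POLA1, 0.777 for COX6A1, 0.661 for LAS1L and 0.457 for PPIG. On the array left out, CCT7 had -1.46, with 1 of its spots at -3.24. The other subunits in the mean lay between -0.27 and 0.15 there, so the likeness rests in part on that spot.

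Genes that work beside the chaperonin were taken as 7 lists, of which 26 genes were tested. In limma 0 of the 26 passed for high against low energy, and 0 had an unadjusted p under 0.05, against 3.78% of features. Their ratios were above 0 for 19 and below 0 for 7, with a median of 0.055, against 46.4% above 0 over all features. In single couples the count above 0 was 13 of 26, 12 of 26, 14 of 25 and 16 of 25 in couples 1 to 4, and 10 of 26 turned values were above 0.

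Among genes that deliver clients, VBP1, a prefoldin subunit, had 0.020 ± 0.086 (turned -0.019) and PFDN5, another, had 0.12 ± 0.27 (turned -0.36), from 0.83 in couple 2 to -0.64 in couple 3. Of 11 cytosolic chaperones and their partners 9 were above 0, with a median of 0.071, while 4 of their 11 turned values were above 0, with a median of -0.049. The inducible HSP70 gene HSPA1A had 0.22 ± 0.089 (turned -0.076), with values of 0.12, 0.22, 0.12 and 0.36 in couples 1 to 4. STIP1, which links HSP70 to HSP90, had 0.12 ± 0.080 (turned -0.20) and was above 0 in every couple, between 0.10 and 0.15. DNAJB1, a J protein that stimulates HSP70, had -0.15 ± 0.087 (turned 0.068) and was below 0 in all 4 couples. Their unadjusted p-values in limma were 0.0515, 0.181 and 0.149, with adjusted p-values of 0.996.

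The folding clients named here had means within 0.11 of 0. ACTA1, the actin of skeletal muscle fibres, had -0.038 ± 0.084 (turned 0.15), ACTC1, the cardiac actin, 0.11 ± 0.14 (turned -0.038), and ACTG1, a cytoplasmic actin, -0.030 ± 0.088 (turned 0.0060). Among 4 tubulin genes tested, TUBA8 had 0.064 ± 0.098 (3 couples; turned -0.0037), TUBA4A -0.017 ± 0.084 (turned 0.052) and TUBB -0.014 ± 0.086 (turned -0.017). The remaining tubulin gene, left unnamed for its larger p in limma, had 0.049 ± 0.40 (turned -0.050). It ranged from -0.83 in couple 2 to 1.26 in couple 3. The tubulin cofactors, which assemble the tubulin dimer after it leaves the chaperonin, gave -0.12 ± 0.13 for TBCB (turned 0.0095) and 0.13 ± 0.22 for TBCE (turned -0.033).

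HSF1, the transcription factor of the heat shock response, had 0.023 ± 0.11 (turned 0.096), and PDCD5, a protein that binds CCT, had 0.0075 ± 0.089 (turned -0.016). The chaperonin of mitochondria, built from other proteins than CCT, had 0.15 ± 0.11 for HSPD1 (turned 0.24) and 0.14 ± 0.29 for its lid HSPE1 (turned -0.40). HSPE1 had 1.05 in couple 4 and 0.038, -0.40 and -0.33 in couples 1 to 3. None of these lists had a member that passed in limma. Of the 16 named genes measured in 4 couples, 3 had ratios of 1 sign in all of them (HSPA1A, STIP1 and DNAJB1), where 16.6% of features did. All 3 are cytosolic chaperones, which like the tubulins were named by smallest p for this ratio. A small p favours 1 sign, so the count cannot be compared with that share. Turned values had 1 sign for 5 of the 16 (VBP1, PFDN5, ACTA1, STIP1 and DNAJB1), where 14.7% of features did.

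**Figure D4:**
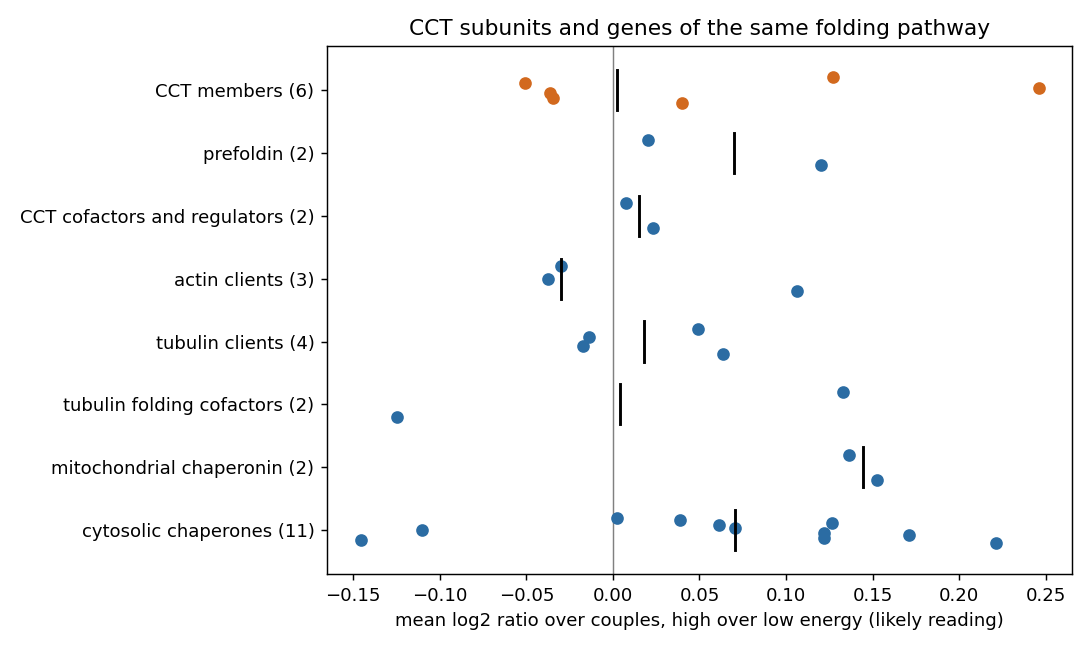
Mean log2 ratio over couples (horizontal axis, high over low energy) of the 6 CCT genes and of the tested genes of 7 related lists, 1 point per gene, with the number of genes in brackets and a black line at each list's median. CCT5 at 0.25 and HSPA1A at 0.22 lie farthest right, and DNAJB1 at -0.15 farthest left.

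Markers of other cell types were compared beside these values. In limma none of the 17 tested markers of blood, fat, matrix, vessel, immune and nerve cells passed. Of the 17, 0 had an unadjusted p under 0.05 in limma, against 3.78% of features. The 3 vessel markers had a median of 0.19 (turned -0.16) and the 2 adipocyte markers one of -0.072 (turned 0.16). The nerve marker S100B had 0.37 ± 0.17 (3 couples; turned -0.15). The 4 immune markers had a median of -0.033 (turned -0.034), with 1 above 0 and 3 below. Of these, C1QA of macrophages had -0.34 ± 0.16 (turned -0.096), below 0 on all 8 arrays. S100A9, the 1 above 0, had 0.25 ± 0.13 (turned -0.033). Of the 11 muscle fibre markers, 4 were above 0 and 7 below, with a median of -0.087 (turned 0.016). In limma 0 of them passed and 2 had an unadjusted p under 0.05. These 2 were myoglobin, MB, at -0.32 ± 0.10 (turned 0.22) and the slow troponin TNNT1 at -0.21 ± 0.080 (turned -0.047). Those above 0 included TNNI2 at 0.15 ± 0.096 (turned -0.051) and TNNT3 at 0.088 ± 0.10 (turned -0.0035). The others above 0 were CKM at 0.083 ± 0.080 (turned 0.016) and DES at 0.047 ± 0.084 (turned 0.00070). The part of these markers in the ratios of the subunit genes was not tested. In bulk muscle, fewer cells of a type and less RNA per cell cannot be told apart.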

How the data were processed

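Muscle RNA of pigs on 2 diets was measured on 8 arrays with 2 colours. Per the series' design text, cDNA carried Cy3 or Cy5, the reference was low energy muscle, and a ScanArray LITE scanner was used. How the authors corrected background, filtered spots and normalized is not stated there. The values deposited by the authors are log2 ratios. The base was read from the values: 85.9% to 97.1% of those on an array were, to the digits given, logarithms in base 2 of a ratio of whole numbers of which the lesser was under 5000, while base e gave 2.88% to 4.46% and base 10 gave 7.59% to 13.6%. Medians lay between -0.0071 and 0.0115.

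From these values, arrays were centred on their medians, spots of 1 gene symbol were averaged, and each spot lacking 1 symbol stayed a feature of its own. Since both arrays of a couple carry the same RNAs per the titles, their mean counts as 1 replicate. A feature needed both orientations in 3 couples. Means were tested against 0 with limma 3.58.1 (lmFit, eBayes; R 4.3.3), two-sided, with blocks for the high energy sample (correlation set to 0.5) and Benjamini-Hochberg adjustment over 5025 features. This fit weights couples 1 and 3 less, so a mean is not the plain average. The fit was tested on simulated data. The number of arrays limits the precision. So does the agreement of swapped arrays, which shared a sign in 50.5% of the combinations of a feature and a couple.

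The members and lists were chosen with earlier results of these data known. The text names every CCT gene with a spot, up to 3 genes of each related list by smallest p, and the 5 genes most like the CCT mean. Alternatives changed direction, orientation, block, centring, scaling, spot averaging, filters and extreme values, and left out each couple.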

Additional observations from a re-analysis of the deposited data

Results flagged for a closer look

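Groups of 4 values were searched for a highest or lowest value set far apart from the rest, by Dixon's test. Of 40 groups looked at for the CCT genes, 3 had one, and chance flags about 1 in 20. CCT5 had 1.47 in couple 4 among the arrays with high energy in dye 3, where the next value was 0.19. CCT7 had a spot at -1.35 in couple 4 among the same arrays, where the next value was 0.16. CCT3 had -0.18 in couple 2 among the arrays with high energy in dye 5, where the other 3 lay between -0.020 and -0.0082. For CCT5 and CCT7 the swapped array of the couple had the opposite sign, and for CCT3 the same sign.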

How the results depend on the processing

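The count of CCT genes past the threshold was 0 under each of the 20 other settings for high against low energy and the 11 for dye orientation, and so was that of features. The fit of all 8 arrays with the couple as a replicate block gave 0 features (smallest adjusted p = 0.0553, correlation within couples -0.036) and 0 CCT genes. With the swapped arrays turned, the mean of the CCT genes was -0.066, and the ratios of CCT2, CCT5 and CCT8 were 0.11, -0.28 and -0.092. With high energy in dye 5 only, CCT2 had 0.072 and CCT5 -0.029. CCT7 was above 0 with high energy in dye 3 only (0.085), with quantile normalization (0.057), with values limited to 2 (0.011) and with a recovered signal of at least 200 (0.092; turned 0.0082). Single spots differed in sign from their gene for TCP1 (-0.048), for CCT7 (0.035; turned 0.22) and for the turned value of CCT8 (0.038). Leaving out each couple gave -0.15 to 0.15 for CCT2, -0.054 to 0.0044 for CCT3, -0.21 to 0.12 for CCT7 and 0.0068 to 0.079 for the mean, and -0.40 to 0.031 for the turned value of CCT7. The cause of these changes was not tested. With 4 couples, of which 2 share a sample, the intervals of the CCT genes include changes from 0.627-fold to 1.52-fold.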
